A study of Mus musculus with 6 samples.

Results

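DNA methylation was examined in mouse lung endothelial cells with and without Dnmt3a, at 41 imprinted genes and the regions that control them. The genes were taken from a list of autosomal imprinted genes, and each was measured over its RefSeq span plus 10 kb on either side. These spans took in 3201 different tiles of 1 kb, out of 1954255 tiles measured on chromosomes 1 to 19. The level of a tile is the deposited methylated fraction of that tile, written here in percent.

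An imprinted gene is expressed mainly from the maternal or from the paternal chromosome. At most imprinted clusters a control region receives its methylation in the oocyte or in sperm, set by Dnmt3a with its partner Dnmt3l, and keeps it on that parental chromosome in the cells of the body. Dnmt1 with Uhrf1 copies the mark at each cell division, and Zfp57 and Zfp445 with Trim28 guard it in the embryo by binding the methylated copy. Other regions of a cluster gain allele-specific methylation later, in the embryo. A region methylated on a single parental chromosome lies near 50%, but the level alone cannot tell that state from methylation of both chromosomes in part of the cells.

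The cells were sorted by flow cytometry from lungs of mice labelled Dnmt3a KO or WT, with 3 samples of each genotype, and read by tagmentation-based whole-genome bisulfite sequencing. The labels used here give no age, sex or strain, and do not say how or in which cells Dnmt3a was deleted or whether samples came from separate animals, so a p-value here reflects sample-to-sample spread, which may be technical. Tile levels cannot show the deletion itself. The files give levels without read counts, so the depth behind a level is unknown. Errors are the SD over the 3 samples of a group (n = 3) unless an interval is named.

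Over all tiles the mean level was 63.7% ± 0.140 in KO and 69.0% ± 0.451 in WT, so differences at imprinted genes are read against a genome that was lower in KO. In WT the least methylated start of 7 endothelial marker genes lay between 1.15 and 23.8%, and those of 5 leukocyte marker genes lay between 66.7 and 73.5%. The range was 1.66 to 59.98% for 4 epithelial genes, 1.39 to 59.997% for 3 mesenchymal genes and 43.8 to 71.8% for 3 erythroid genes. Starts of these markers moved with genotype too: 2 of 4 epithelial, 2 of 3 mesenchymal and 1 of 5 leukocyte starts were called lower in KO, against 0 of 11 endothelial and 0 of 3 erythroid starts, where 23.1% of all starts were called lower. The called ones were Krt8 (13.9% ± 2.81 in KO and 36.8% ± 2.92 in WT), Sftpb (39.6% ± 2.73 and 59.98% ± 2.65), Cd79a (50.6% ± 2.28 and 69.9% ± 5.02), Col1a2 (4.997% ± 0.816 and 15.1% ± 1.47) and Acta2 (47.9% ± 3.18 and 59.997% ± 3.39). The part of other cell types in the levels below was not tested.

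Near imprinted genes, tiles called lower in KO far outnumbered tiles called higher. Of the 3201 tiles, 866 were lower in KO (27.1%) and 3 were higher. A tile was called at an adjusted p under 0.05 (limma on the level in percent, Benjamini-Hochberg over all tiles) and a difference of at least 10 percentage points. Over all tiles 16.2% were called lower and 0.0796% higher. The median difference was -6.01 points near imprinted genes and -4.05 over all tiles. When each sample was centred on its median tile, which removes the shift of the whole genome, 412 tiles near imprinted genes were lower and 27 higher, and when samples were scaled to one mean 406 were lower and 39 higher.

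Tiles near 50% are where an allele-specific mark would lie. Near the imprinted genes 607 tiles had a WT mean of 40 to 60%, and they averaged 44.7% ± 0.578 in KO and 51.5% ± 0.237 in WT. Of these, 397 also lay at 40 to 60% in KO (65.4%), 147 were lower (24.2%) and 1 was higher. Among all 319463 tiles in that WT band, 71.6% lay at 40 to 60% in KO, 14.8% were lower and 0.212% higher. A WT level near 50% was therefore common in these cells and does not by itself mark an imprint. At the lower limit of the band, 17 tiles just inside averaged 31.9% in KO and 40.6% in WT, and 15 just outside averaged 34.7 and 39.5%. At the upper limit, 42 tiles just inside averaged 49.4 and 59.5%, and 34 just outside 49.7 and 60.5%.

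These tiles differed by cluster. The genes from Snrpn to Peg12 on chromosome 7, whose human counterparts lie in the Prader-Willi syndrome region, held 248 of the 607. The KO samples averaged 50.6, 51.3 and 52.2% there and the WT samples 52.0, 52.1 and 52.0%, so the groups overlapped, and 3 of 248 tiles were lower. All 383 tiles near the genes of this cluster averaged 52.7% in KO and 54.0% in WT, and 1 lay over 80% in WT. Levels in the band were thus spread over the cluster, so the 248 tiles are not a count of control regions. The other 359 of the 607 averaged 40.4, 39.3 and 40.5% in the KO samples. In the WT samples they averaged 51.7, 50.9 and 51.0%, without overlap. Of those, 144 were lower (40.1%). Because the band was drawn on WT values, it was also drawn on WT replicate 1 alone, with the difference taken without that sample. It then held 585 tiles near imprinted genes with 131 lower, and 128 of the 364 outside the Snrpn to Peg12 cluster were lower, against 12.5% of all tiles in the band.

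**Figure D1:**
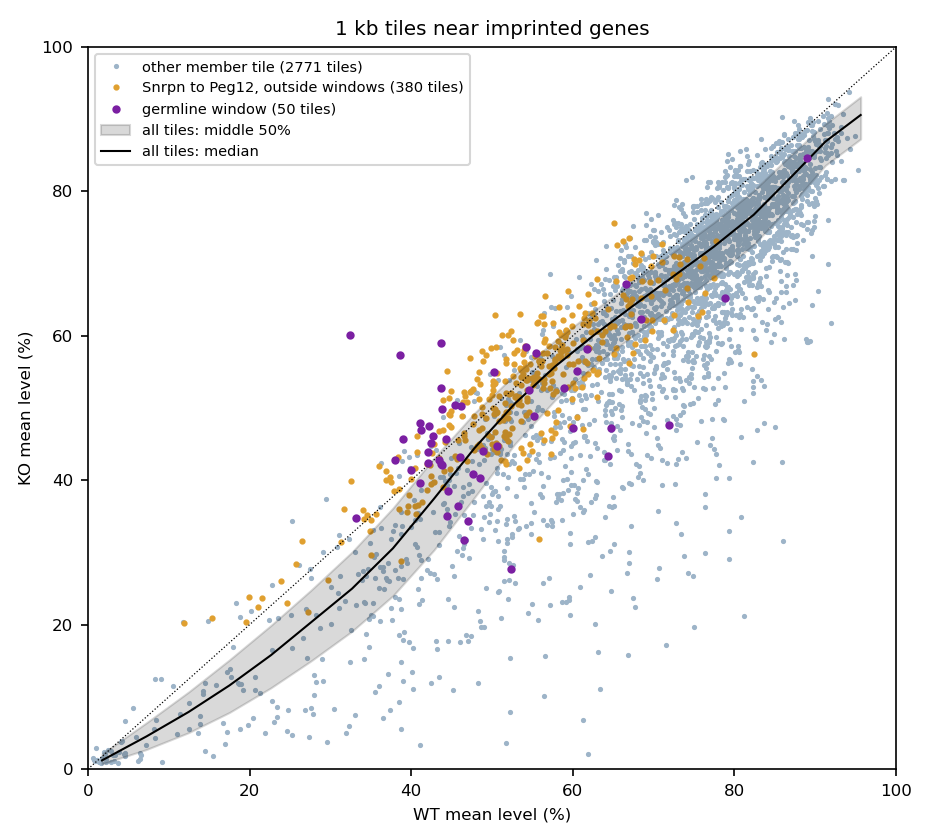
Mean level of each 1 kb tile near an imprinted gene in WT (horizontal, %) against KO (vertical, %), with the median and middle 50% of all tiles by WT level. The tiles of the Snrpn to Peg12 cluster and most of the 50 tiles in germline control windows lie near the line of equal levels, while many other tiles with a WT level of 40 to 80% lie below the band of all tiles.

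The germline control regions at which windows were placed differed less between genotypes, on average, than the tiles beside them. To describe them, 16 windows of 2 to 6 tiles were placed at known germline control regions, at a gene's start where the region covers it and otherwise at a named gap or span. They were placed with levels already known, so their sums are a description without a test. No window was placed for the germline regions of Impact, Inpp5f, Cdh15, Zdbf2 or Rasgrf1, or upstream of Meg3. The sums therefore do not cover all control regions of the listed genes. The mean over the windows was 47.5, 47.7 and 47.7% in the KO samples and 49.8, 49.1 and 50.1% in the WT samples, a difference of -2.03 points. Of their 50 tiles 6 were lower (12%), each the outermost tile of its window. Most windows had 3 tiles, so most of the 50 tiles were outermost ones, and this position says little about the window centres. That share compares with 16.2% of all tiles and 14.8% of all tiles with a WT mean of 40 to 60%. The tiles of that band averaged 49.3% in KO and 53.5% in WT. Their median difference was -2.36 points, whereas the -2.03 of the windows is a difference of means. The 150 tiles within 5 kb outside the windows averaged 56.6, 56.3 and 56.2% in KO and 67.4, 66.9 and 67.4% in WT. These neighbours differed by -10.9 points, with 61 lower tiles (40.7%). The windows ranged from 38.9 to 63.0% in WT and from 35.3 to 62.5% in KO. KO minus WT was above that of the neighbours in 14 of the 16 windows. It was below at the fourth Snrpn start (-11.8 points against -6.29 beside it) and at Zrsr1 (-6.90 against -3.14). Another 8 windows were placed in the same way at regions where the mark is set later. They differed by -5.33 points on average and their neighbours by -8.06, with 6 of 24 tiles lower inside (25%) and 24 of 72 beside (33.3%). There KO minus WT was above that of the neighbours in 6 of 8 windows, all but the starts of Igf2r (-23.4 against -17.6) and Meg3 (-15.4 against -10.9).

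The sequences before 6 starts are shown because the levels around them separate the patterns described below: no call at Peg3 and Usp29, at the second Mest start, at Plagl1 and at Kcnq1ot1, a rise at the second Grb10 start and a fall at Igf2r. At Grb10 the tile that rose, chr11:12026001-12027000, lies on the other side of the start, so the bases shown are not those of that tile. They come from RefSeq on GRCm38.p6 and run 5′ to 3′ on the gene's strand up to the base before the start, and capitals mark CpG, the site of methylation.
Between the starts of Peg3 and Usp29, on the Peg3 side, chr7:6730420-6730582, minus strand, 5 CpG: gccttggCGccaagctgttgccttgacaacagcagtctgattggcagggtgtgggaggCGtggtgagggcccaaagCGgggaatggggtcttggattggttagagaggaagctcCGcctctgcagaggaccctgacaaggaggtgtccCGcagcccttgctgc
Second start of Mest, chr6:30737800-30738049, plus strand, 14 CpG: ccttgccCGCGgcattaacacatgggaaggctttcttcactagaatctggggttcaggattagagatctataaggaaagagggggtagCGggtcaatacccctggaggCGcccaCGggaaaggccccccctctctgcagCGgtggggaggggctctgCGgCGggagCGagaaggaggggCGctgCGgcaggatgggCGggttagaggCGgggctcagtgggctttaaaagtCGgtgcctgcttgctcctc
Start of Plagl1, chr10:13090582-13090831, plus strand, 19 CpG: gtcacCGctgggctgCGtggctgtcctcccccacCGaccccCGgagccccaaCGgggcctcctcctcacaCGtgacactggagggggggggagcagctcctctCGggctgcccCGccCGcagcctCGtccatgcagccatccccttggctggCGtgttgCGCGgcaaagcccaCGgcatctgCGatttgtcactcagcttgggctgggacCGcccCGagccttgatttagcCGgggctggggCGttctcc
Start of Kcnq1ot1, chr7:143296548-143296797, minus strand, 5 CpG: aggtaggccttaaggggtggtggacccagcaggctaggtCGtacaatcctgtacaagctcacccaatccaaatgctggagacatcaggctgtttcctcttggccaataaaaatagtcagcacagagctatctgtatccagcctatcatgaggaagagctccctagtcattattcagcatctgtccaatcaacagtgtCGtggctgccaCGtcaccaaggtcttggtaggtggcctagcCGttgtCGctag
Second start of Grb10, chr11:12027972-12028221, minus strand, 8 CpG: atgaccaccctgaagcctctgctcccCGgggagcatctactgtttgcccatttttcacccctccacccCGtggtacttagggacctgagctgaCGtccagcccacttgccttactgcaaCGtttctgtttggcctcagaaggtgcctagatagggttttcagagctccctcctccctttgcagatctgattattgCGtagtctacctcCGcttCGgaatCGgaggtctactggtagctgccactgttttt
Start of Igf2r, chr17:12769707-12769956, minus strand, 27 CpG: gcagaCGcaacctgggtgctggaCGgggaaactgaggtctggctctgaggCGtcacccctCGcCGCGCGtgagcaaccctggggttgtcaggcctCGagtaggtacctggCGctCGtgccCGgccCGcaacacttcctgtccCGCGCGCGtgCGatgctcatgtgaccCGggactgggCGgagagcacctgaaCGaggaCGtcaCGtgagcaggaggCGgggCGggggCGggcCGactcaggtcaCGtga

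The 250 bases before a start held a median of 10 CpG over 48 promoter entries of the imprinted genes and 6 over all 31396 entries. TGCCGC, the motif of Zfp57 (GCGGCA on the other strand, both searched), was in 7 of the 48 (14.6%) and in 8.70% of all. It occurs 2 times before the second Mest start and 1 time before Plagl1, and a match is a description of the sequence, not of binding. The entries with the motif had no common pattern of levels: they include the second Mest start and the first Meg3 start, which are described below.

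The first group comprised 14 genes whose start lies at or beside a maternally methylated germline region. Averaged over span and flanks, 11 of the 14 were lower in KO, those other than Peg3, Snrpn and Impact. A gene region or gene body was called at an adjusted p under 0.05 and at least 5 points, and 52.6% of all 46100 gene regions were called lower and 0.013% higher. A start, the mean of the tiles within 1000 bp of a RefSeq start, needed 10 points. Of 11 different start windows in this group 2 were lower and none was higher, against 23.1% lower and 0.039% higher among all 30807 starts. These windows lie at RefSeq starts of the genes, and not all are at a germline region. They include the upstream Mest start and several Snrpn starts away from its germline region. The 2 lower windows were the upstream Mest start and the Snrpn start at the germline region. The start window that Zrsr1 shares with Commd1 was counted with Commd1, in the next group. Of 11 gene bodies 8 were lower, against 51.8% lower and 0.0424% higher among all 21241 bodies. When samples were centred the region calls of Kcnq1ot1, Nespas, Peg13 and Zrsr1 were lost (-4.99 to -1.50 points), as were the body calls of Kcnq1ot1, Mest and Peg10 (-4.61 to -2.69), and scaling lost the same 4 regions and 3 bodies.

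Peg3, a zinc finger protein, and Usp29, a ubiquitin protease, are divergent genes that share a start region. The level there was 39.9, 36.8 and 41.8% in KO and 38.5, 40.9 and 37.4% in WT. The groups overlapped, and the difference of 0.539 points had a 95% interval of -4.26 to 5.33. The next tile towards Usp29, chr7:6732001-6733000, was at 38.2, 37.6 and 30.1% in KO and 58.8, 54.5 and 66.9% in WT (adjusted p = 0.000323). The 3 tiles after it were lower by 20.5, 18.0 and 11.5 points, whereas none of the tiles within 5 kb on the Peg3 side was called. The body of Usp29 averaged 57.7% ± 0.186 in KO and 68.7% ± 0.489 in WT. The Peg3 body averaged 75.6% ± 1.74 in KO and 78.0% ± 1.15 in WT (adjusted p = 0.0732). Within Usp29 the tile chr7:6751001-6752000 was at 16.2% ± 4.91 in KO and 63.1% ± 2.22 in WT.

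Mest, a hydrolase of the endoplasmic reticulum, has start windows with opposite patterns. The second, at the germline region, was at 47.6, 44.3 and 47.6% in KO and 52.2, 42.7 and 49.9% in WT, a difference of -1.75 points with overlap (95% interval -7.99 to 4.50). The first, upstream, was at 32.8, 41.5 and 28.7% in KO and 76.3, 70.1 and 74.6% in WT, without overlap (-39.3 points, adjusted p = 7.87e-06). In the first window the tile chr6:30733001-30734000 was at 21.2% ± 8.43 in KO and 81.2% ± 4.41 in WT. No tile from 30734001 to 30744000 was called, so the called loss on the upstream side ended before the second start, and on the other side the tiles from 30744001 to 30746000 were lower by 19.5 and 25.6 points.

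Kcnq1ot1 is a noncoding RNA that starts inside Kcnq1, a potassium channel gene, and silences its neighbours on the paternal chromosome. Its start window was at 55.9, 56.7 and 54.9% in KO and 48.2, 44.4 and 55.6% in WT, a difference of 6.46 points that was not called (95% interval -0.205 to 13.1). It passed the call when samples were centred (11.4 points) or scaled (10.7 points). One tile of the window, chr7:143295001-143296000, was higher in KO, at 56.3, 64.4 and 51.5% against 39.0, 28.0 and 48.8% in WT (adjusted p = 0.0107), a call lost without KO replicate 2 (adjusted p = 0.0582) or WT replicate 2 (0.0882). The 6 tiles beside it inside the gene, from 143289001 to 143295000, were lower by 18.0 to 30.3 points. In KO these 7 adjoining tiles lay between 43.6 and 57.4%, and in WT between 38.6 and 83.3%. The dip that WT shows at the start was thus not visible in KO.

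**Figure D2:**
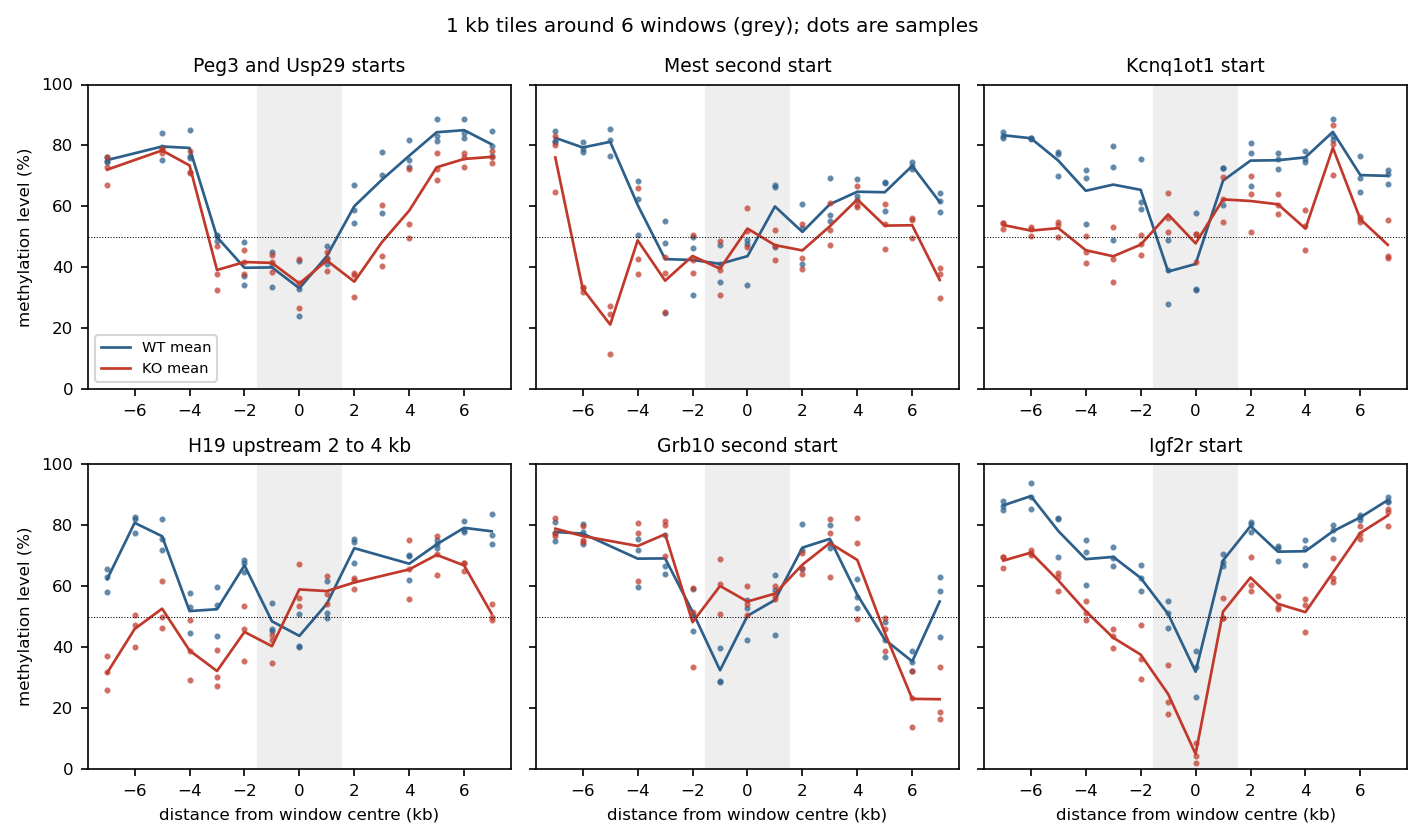
Level (%) of 1 kb tiles by distance in kb from the centre of 6 windows, shaded grey, where dots are the 6 samples and lines the group means. At Peg3 and Usp29 and at Mest the WT profile dips to about the KO level inside the window, at Kcnq1ot1, Grb10 and H19 a window tile is higher in KO, and at Igf2r KO lies below WT in every window tile.

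Plagl1, a zinc finger factor of fetal growth, had the largest body difference of the 32 imprinted gene bodies, at 47.2, 47.9 and 47.1% in KO and 72.3, 70.9 and 71.8% in WT (-24.3 points). Its start was at 51.7, 41.9 and 45.2% in KO and 48.9, 56.4 and 56.7% in WT, with overlap and without a call (-7.77 points, 95% interval -14.9 to -0.679). Without KO replicate 1 or WT replicate 1 it passed the call, at -10.5 and -10.3 points. Of the 3 window tiles, the one holding the start averaged 47.0% ± 8.94 in KO and 41.2% ± 7.27 in WT. The tile before it was lower by 24.3 points. The tiles just after the window, from 13092001 to 13094000 on chromosome 10, were lower by 28.5 and 27.2 points.

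Airn is the noncoding RNA that starts inside Igf2r and silences it on the paternal chromosome. Its start was at 43.8, 44.5 and 42.9% in KO and 62.0, 42.8 and 36.3% in WT, so the WT samples lay on both sides of all KO samples (-3.29 points, 95% interval -14.7 to 8.09). The 3 tiles before the window, from 12737001 to 12740000 on chromosome 17, were lower by 20.9 to 27.7 points. The tile chr17:12751001-12752000 was at 15.6% ± 3.69 in KO and 56.5% ± 4.30 in WT. The body of Airn averaged 59.1% ± 0.811 in KO and 71.0% ± 0.420 in WT.

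Peg10, derived from a retrotransposon, and Sgce, a sarcoglycan, lie head to head on chromosome 6. The window at the gap between them was at 43.4, 38.6 and 38.7% in KO and 43.3, 45.0 and 48.5% in WT. Within the Sgce span the tile chr6:4739001-4740000 was at 6.74% ± 2.52 in KO and 61.3% ± 1.94 in WT (adjusted p = 3.43e-10), the smallest p of any tile near the pair. The next tile, chr6:4740001-4741000, was at 6.90, 11.1 and 5.72% in KO and 49.2, 54.3 and 53.3% in WT. The tiles that follow towards the gap were lower by 36.8, 28.4, 25.8 and 21.0 points, and the tile beside the window by 8.43 points without a call. Of the window's own 3 tiles the one on the Sgce side was lower by 14.8 points and the others were not called. The body of Sgce averaged 61.7% ± 0.492 in KO and 76.9% ± 0.870 in WT.

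Nespas is the antisense RNA of the Gnas cluster on chromosome 2. The longest run of tiles near 50% in WT at Nespas and Gnas had 7 tiles, chr2:174294001-174301000, with means of 45.2% in KO and 45.3% in WT and none called. Single samples varied widely there: the window at the upper end of Nespas was at 60.2, 40.9 and 39.0% in KO and 39.4, 43.1 and 49.6% in WT. Beyond the run on either side tiles were lower again, by 17.1 points at 174293001 and by 14.5 points at 174301001.

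Zrsr1, a splicing factor gene inside Commd1, shares its start window with the second Commd1 start. The level there was 43.4, 40.9 and 46.7% in KO and 47.9, 49.3 and 54.5% in WT, without overlap and without a call (-6.90 points, adjusted p = 0.0512). Nnat, a membrane proteolipid gene inside an intron of Blcap, was at 39.6, 56.9 and 50.8% in KO and 54.8, 56.5 and 53.8% in WT (adjusted p = 0.218), where KO replicate 1 stood low. Peg13, a noncoding RNA inside Trappc9, was at 55.1, 52.4 and 47.6% in KO and 50.4, 50.4 and 54.2% in WT over its span. No tile of that span was called, and 5 of the 10 tiles around it were lower. Impact, a regulator of translation on chromosome 18, had 1 lower tile of 56, and its region averaged 70.4% ± 0.0872 in KO and 73.6% ± 0.883 in WT (-3.22 points, under the size limit).

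Snrpn gives a splicing protein and a long host RNA of small nucleolar RNAs. Its body averaged 53.6% ± 0.303 in KO and 54.4% ± 0.320 in WT over 287 tiles (-0.857 points, 95% interval -2.88 to 1.16), and 4 of its 303 tiles were lower. The fourth start, at the germline region, was lower in KO: 34.3, 36.7 and 35.02% in KO and 39.4, 49.2 and 52.7% in WT, without overlap (-11.8 points, adjusted p = 0.0100). That call was lost when samples were centred (-6.89 points, adjusted p = 0.137) or scaled (-8.49 points, 0.0638) and without WT replicate 3 (-8.98 points). The fall lay at one side of the window, in chr7:60006001-60007000, with 24.98, 30.7 and 27.5% in KO and 59.9, 44.8 and 52.3% in WT, and in the tile after it, which was lower by 24.0 points. The tile at the other end of the window was at 44.0% ± 10.6 in KO and 42.0% ± 8.78 in WT.

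The second group held 10 genes that carry a germline region within or at the gene: Kcnq1, Igf2r, Gnas, Commd1, H13, Trappc9, Inpp5f, Grb10, Cdh15 and Slc38a4. The regions of all 10 were lower, at a median of -8.54 points against -5.27 over all gene regions, of which 52.6% were lower. When samples were centred 8 of these calls were lost (-4.36 to -0.267 points), and those of Kcnq1 and Igf2r were kept. Scaling lost the same 8 (-3.92 to 0.144 points). The region of Grb10 (-5.16 points) fell under the size limit without KO replicate 2 (-4.94) or WT replicate 1 (-4.68). The bodies of 9 of 10 were lower, all but that of Grb10 (-4.78 points), against 51.8% of all bodies. The Grb10 body passed without KO replicate 3 (-5.20) or WT replicate 3 (-5.25), and that of Cdh15 was lost without KO replicate 1 (-4.81) or WT replicate 2 (-4.66). Centring and scaling each lost 6 of the body calls. Of 14 start windows 4 were lower and 1 was higher, against 23.1% lower among all starts.

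Grb10, an adaptor that restrains growth signalling by the insulin receptor, has its germline region at an inner, second start. That start was at 58.4, 57.3 and 57.0% in KO and 49.3, 46.8 and 42.1% in WT, without overlap (11.5 points, 95% interval 5.80 to 17.2, adjusted p = 0.00392). It was one of 12 starts called higher of 30807. The rise lay in the tile chr11:12026001-12027000, at 68.8, 60.7 and 50.8% in KO and 28.9, 28.5 and 39.9% in WT (adjusted p = 0.000263), and the other tiles of the window differed by 4.67 and 2.09 points. The start fell under the size limit without WT replicate 3 (9.497 points), and no start was called higher with windows of 500 or 2000 bp, while the tile kept its call without any single sample. The first start of Grb10 was at 8.06% ± 2.12 in KO and 11.8% ± 2.08 in WT. Between the starts, the tile chr11:12034001-12035000 was lower, at 22.9% ± 9.12 in KO and 55.0% ± 10.3 in WT.

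Igf2r, the receptor that clears IGF2, carries at its own start a methylation mark that is set after fertilization on the copy where Airn is transcribed. The start was at 27.4, 28.5 and 25.3% in KO and 48.5, 54.0 and 48.9% in WT, without overlap (-23.4 points, 95% interval -28.3 to -18.4, adjusted p = 1.52e-05). All 3 tiles of the window were lower, and the middle one, chr17:12769001-12770000, was at 4.36, 2.05 and 8.40% in KO and 23.7, 38.6 and 33.6% in WT. The window at the Airn start differed by -3.29 points, and the difference between the pair of windows was not tested.

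At Gnas, which encodes a stimulatory G protein subunit from several promoters, no start window was called. The second start was at 42.5, 46.8 and 46.6% in KO and 53.1, 51.7 and 40.8% in WT, with overlap. The first, of the Nesp transcript, averaged 38.5% ± 5.84 in KO and 40.8% ± 7.47 in WT, and the fourth 4.30% ± 2.46 in KO and 9.34% ± 2.72 in WT. The body was lower by 9.74 points, and the tile chr2:174312001-174313000 was at 13.4% ± 3.59 in KO and 40.1% ± 4.99 in WT.

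The retrogene Mcts2 lies inside H13, a signal peptide peptidase gene, and its start was at 56.5, 67.4 and 63.6% in KO and 60.2, 65.2 and 63.6% in WT. No tile within 5 kb of that window was called. Inpp5f, a phosphoinositide phosphatase, was lower at its start, with 30.9, 32.5 and 32.9% in KO and 44.4, 41.6 and 41.1% in WT (adjusted p = 0.00151), and fell under the size limit without KO replicate 1 (-9.63 points) or WT replicate 1 (-9.22) and when samples were centred (-5.36) or scaled (-7.25). Cdh15, a cadherin of muscle, averaged 47.4% ± 1.04 in KO and 60.1% ± 1.99 in WT at its start (-12.7 points, adjusted p = 0.00132), and fell under the size limit when samples were centred (-7.82 points) or scaled (-8.36). Slc38a4, an amino acid transporter, was at 37.6, 50.7 and 48.4% in KO and 63.4, 55.7 and 50.05% in WT at its first start, with overlap between the groups. Its adjusted p of 0.0475 rose to between 0.0589 and 0.175 without KO replicate 1, KO replicate 3, WT replicate 1 or WT replicate 2, and was 0.0603 with the replicate number as a block. The Slc38a4 call was also lost on a logit scale, without the variance trend, and when samples were centred (-5.88 points) or scaled (-6.65).

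Single tiles inside the hosts or within 10 kb of them, outside the windows, showed large losses. In Trappc9, which encodes a trafficking protein, chr15:73020001-73021000 was at 2.15% ± 1.52 in KO and 61.9% ± 3.53 in WT (adjusted p = 1.12e-10). In Inpp5f, chr7:128672001-128673000 was at 3.34% ± 1.004 in KO and 41.1% ± 2.11 in WT. In Kcnq1, chr7:143124001-143125000 was at 22.4% ± 5.94 in KO and 67.7% ± 4.88 in WT. Near Slc38a4, chr15:97065001-97066000 was at 29.9% ± 3.85 in KO and 76.4% ± 1.28 in WT. Near H13, chr2:152718001-152719000 was at 27.9% ± 3.51 in KO and 70.6% ± 7.48 in WT. Near Cdh15, chr8:122870001-122871000 was at 17.5% ± 2.12 in KO and 46.1% ± 0.427 in WT.

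**Figure D3:**
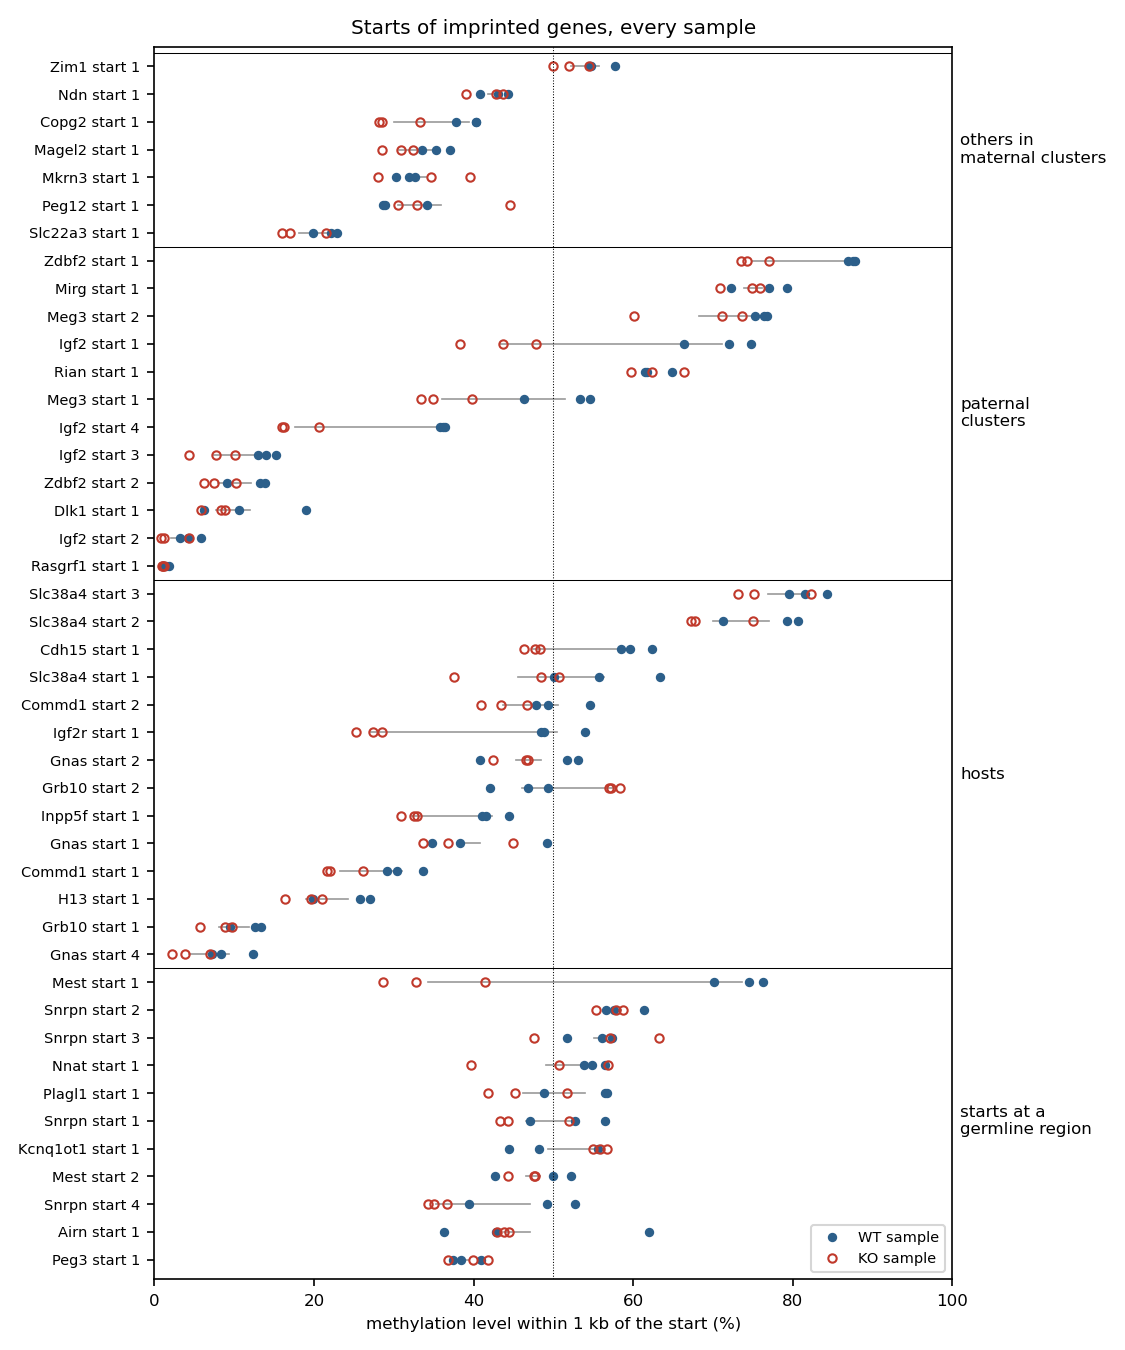
Level (%) within 1000 bp of each of 44 different start windows of the imprinted genes, in 4 groups by role, with every KO and WT sample as a point. Most starts with a WT level of 40 to 60% have overlapping or adjoining points, while the first starts of Mest, Igf2 and Meg3 and the start of Igf2r have KO points far below WT, and the second start of Grb10 has them above.

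The third group held 9 genes of clusters with a paternally methylated control region: H19, Igf2, Meg3, Dlk1, Rtl1, Rian, Mirg, Rasgrf1 and Zdbf2. The regions of H19, Igf2, Meg3, Dlk1 and Zdbf2 were lower, as were 4 of 12 start windows and 4 of 8 bodies, against 52.6% of all regions, 23.1% of all starts and 51.8% of all bodies. The region calls of Zdbf2, Dlk1 and Meg3 were lost when samples were centred (-4.83 to -2.75 points), and that of Meg3 also when scaled (-2.45). H19, a noncoding RNA of the maternal chromosome, had the largest difference of the 41 regions, at 43.6, 40.9 and 42.1% in KO and 63.2, 61.1 and 61.9% in WT (-19.9 points). Its control region, where Ctcf binds the unmethylated maternal copy, lies between 2 and 4 kb upstream. That window was at 49.5, 50.5 and 57.7% in KO and 45.7, 45.0 and 55.7% in WT, with overlap. Its middle tile, chr7:142581001-142582000, was higher in KO, at 56.1, 53.5 and 67.2% against 40.2, 39.97 and 50.9% in WT (adjusted p = 0.0251), a call lost without KO replicate 3, WT replicate 1 or WT replicate 2 (adjusted p = 0.0995 to 0.132). On the gene side of the window the 6 tiles from 142574001 to 142580000 differed by -12.9 to -34.8 points, with calls in 5 of the 6. The 3 tiles called higher near all 41 genes were those of H19, Kcnq1ot1 and Grb10, and each lay in a control window. They were 0.0937% of the tiles near imprinted genes, close to the 0.0796% called higher over all tiles. The windows were placed with levels already known, so the position of these tiles is a description only.

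Igf2, a fetal growth factor that shares the H19 control region, was lower at its first start, at 38.3, 47.8 and 43.7% in KO and 66.4, 72.0 and 74.8% in WT (-27.8 points, adjusted p = 5.37e-05). The fourth start was at 15.9, 16.2 and 20.7% in KO and 36.2, 36.5 and 35.8% in WT (-18.5 points, adjusted p = 1.12e-05). Neither pair of groups overlapped. The pair of starts between them were low in WT already, at 4.41% ± 1.35 and 14.1% ± 1.11, and were not called. The tile chr7:142655001-142656000 was at 8.15% ± 1.06 in KO and 37.4% ± 2.97 in WT. The body of Igf2 averaged 8.61% ± 0.573 in KO and 24.5% ± 1.32 in WT.

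Meg3, a noncoding RNA, and Dlk1, a Notch ligand homologue, belong to a cluster on chromosome 12 whose germline region lies upstream of Meg3, beyond the span measured here. The first Meg3 start, where allele-specific methylation is set in the embryo, was at 33.4, 39.8 and 34.9% in KO and 53.4, 54.6 and 46.3% in WT, without overlap (-15.4 points, adjusted p = 0.00118). The second Meg3 start (-7.84 points) was not called but passed without KO replicate 1 (-10.5). The call of the Meg3 body (-5.15 points) was lost when samples were centred (-0.259) and without KO replicate 2, KO replicate 3 or WT replicate 1 (-4.88 to -4.45), and scaling turned its sign (0.193). The body of Dlk1 averaged 16.1% ± 1.92 in KO and 29.7% ± 2.54 in WT. Rtl1, a retrotransposon-derived placental gene, and the noncoding RNAs Rian and Mirg had region differences of -3.41, -2.47 and -2.25 points and were not called. Rasgrf1, a guanine nucleotide exchange factor, had 1 lower tile of 127, and its start averaged 1.08% ± 0.124 in KO and 1.38% ± 0.492 in WT. No window was placed at the control region of Rasgrf1, so these values do not describe that region. Zdbf2, a zinc finger gene, was lower at its first start, at 74.96% ± 1.84 in KO and 87.5% ± 0.466 in WT (-12.5 points). That call was lost when samples were centred (-7.60 points) or scaled (-5.93), as was that of the Zdbf2 body when centred (-4.83). The Zdbf2 tile chr1:63213001-63214000 was at 11.2% ± 1.08 in KO and 63.3% ± 4.86 in WT.

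The fourth group held 8 further genes of clusters with a maternally methylated region: Cdkn1c, Ndn, Magel2, Mkrn3, Peg12, Zim1, Copg2 and Slc22a3. The regions of Cdkn1c, Copg2 and Slc22a3 were lower, 3 of 8 against 52.6% of all regions. The Copg2 region (-6.26 points) fell under the size limit when samples were centred (-1.37) or scaled (-0.456). That of Slc22a3 (-5.41 points) did so too (-0.521 and -0.198), and without WT replicate 1 (-4.65). The bodies of Copg2 and Slc22a3 were lower by 5.31 and 5.02 points. Both calls were lost when centred (-0.416 and -0.129), and scaling turned both signs (0.859 and 0.372). The Copg2 body call was also lost without WT replicate 3 (-4.99), and that of Slc22a3 without KO replicate 2, KO replicate 3 or WT replicate 1 (-4.88 to -4.25). The region of Mkrn3, a zinc finger protein that restrains puberty, was not called (-4.88 points) but passed without KO replicate 2, KO replicate 3 or WT replicate 3 (-6.47, -5.27 and -5.63 points). None of 7 start windows was called. The Copg2 start (-9.46 points, adjusted p = 0.00328) passed without KO replicate 3 (-11.1) or WT replicate 1 (-10.3). Ndn, a neuronal growth suppressor, was at 42.9, 39.1 and 43.7% in KO and 44.4, 43.0 and 40.8% in WT at its start (-0.886 points, 95% interval -5.86 to 4.08). The starts of Magel2, Mkrn3 and Peg12 beside it differed by -4.70, 2.47 and 5.39 points, and when samples were centred the Peg12 start was called higher (10.3 points). No tile near Ndn, Magel2 or Peg12 was called. Cdkn1c, a cell cycle inhibitor silenced by Kcnq1ot1, was at 33.2, 40.1 and 39.7% in KO and 43.6, 37.3 and 43.5% in WT over its span, with overlap, and the tile beside it, chr7:143462001-143463000, was at 34.0% ± 2.85 in KO and 72.7% ± 0.717 in WT.

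**Figure D4:**
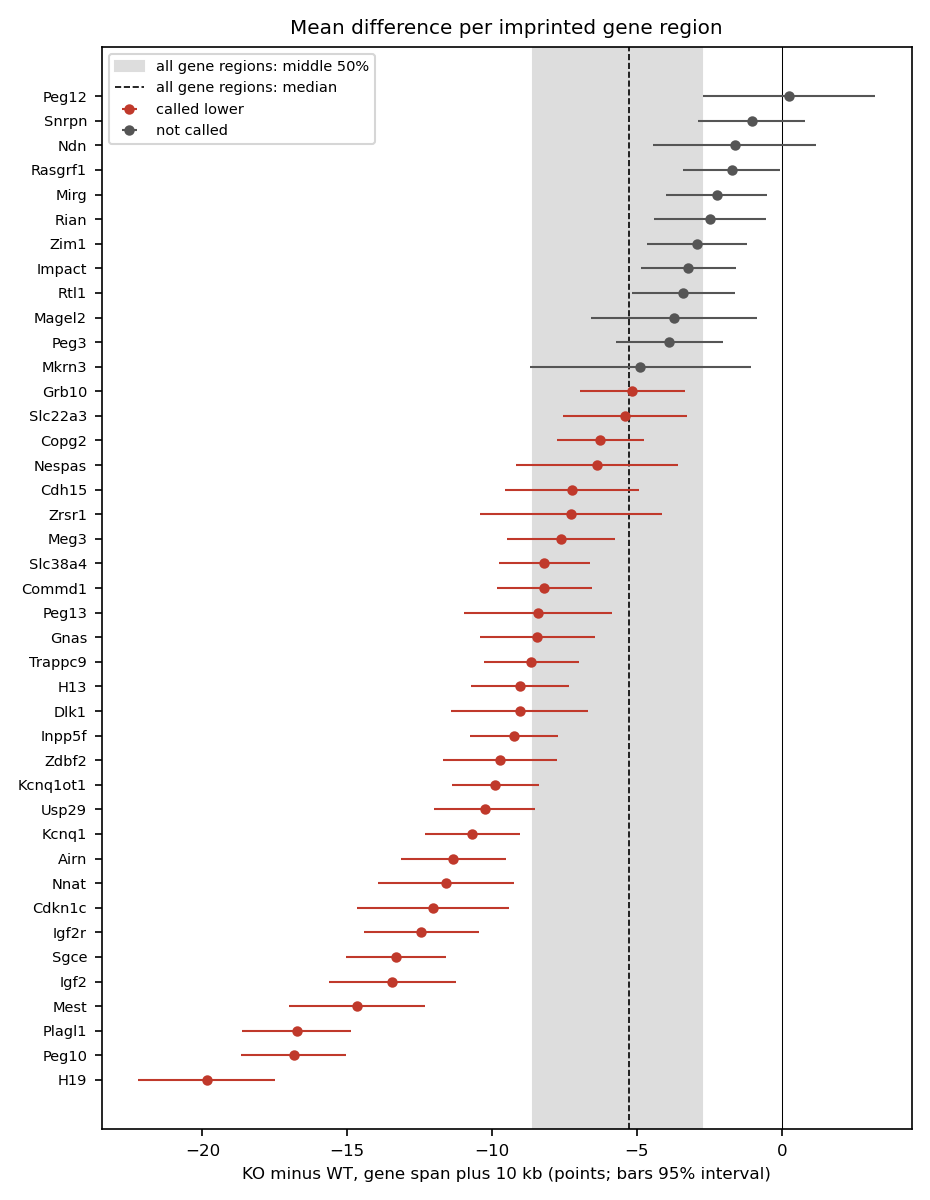
KO minus WT (percentage points, with the 95% interval) of the mean level over each of the 41 imprinted gene regions, ordered by size, beside the median (-5.27) and middle 50% of all gene regions. The 29 regions called lower lie to the left with H19, Peg10 and Plagl1 at the far end, and the 12 regions not called lie nearest to 0.

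Of the 41 gene regions, 29 were lower in KO and none was higher, at a median of -8.21 points, where 52.6% of all regions were lower. By limma at an unadjusted p under 0.05 the number higher was also 0, and by the adjusted p without the size limit 37 were lower. The KO samples lay wholly below the WT samples in 38 regions, as they did in 77.5% of all gene regions. When samples were centred or scaled, 12 and 14 regions were lower. Of 32 bodies 23 were lower (51.8% of all bodies), at a median of -8.44 points against -5.30 over all bodies, and 10 and 11 when centred or scaled.

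Of 44 different start windows, 10 were lower and 1 was higher, at a median of -4.78 points against -5.21 over all starts. The share lower (22.7%) was that of all starts (23.1%). The KO samples lay wholly below the WT samples in 17 windows, against 57.9% of all starts. When samples were centred 5 were lower and 3 higher, and when scaled 5 and 2. Starts were used for 31 genes, and Trappc9, Impact, Kcnq1, Rtl1, Sgce, H19, Nespas, Peg13, Cdkn1c and Peg10 are described by region, body or window. Of 19 start windows with a WT mean of 40 to 60%, 5 were lower, 1 was higher and 13 were not called, at a median of -3.55 points. Of all 6007 starts in that band 34.3% were lower and 0.166% higher, at a median of -6.73 points.

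To set each start against its own gene, the difference at a start was tested against that in the body. These are RefSeq starts of genes with a measured body, and not all lie at a control region. Control windows at a gap, a span, an upper end or upstream of a gene were not part of this test. The body keeps the tiles of starts that lie inside the gene. The second starts of Grb10 and Igf2 and the fourth of Snrpn were thus tested against means that contain them. The start gained on the body in KO at Usp29 (11.6 points, adjusted p = 0.00644), Kcnq1ot1 (16.0, 0.00295), Plagl1 (16.5, 0.00925), the second start of Grb10 (16.3, 0.00139) and the second start of Igf2 (13.6, 0.00356). Over all genes with both values 3.92% were called in that direction and 5.22% in the other. The start lost more than the body at the first starts of Mest (-31.8 points), Igf2 (-11.9) and Meg3 (-10.3), the fourth of Snrpn (-10.9) and that of Igf2r (-11.0). Of these, the call at Mest held when any single sample was left out. Those at Igf2 (without KO replicate 1 or WT replicate 3), Meg3 (without KO replicate 1 or 3 or WT replicate 1 or 2), Snrpn (without any single sample but WT replicate 1) and Igf2r (without KO replicate 3 or WT replicate 2) were lost. On a logit scale 2 starts lost more than the body. Scaling lost the calls of Usp29 (9.62 points) and the first Igf2 start (-8.62). Gains that were not called passed at the first Gnas start and at Dlk1 without WT replicate 2 (11.7 and 14.0), at Airn without WT replicate 1 (15.9), and at the third Igf2 start without KO replicate 2 or WT replicate 1 (10.8 and 10.5).

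The same test was made against tiles 2 to 6 kb from the start on either side, a comparison added after the values had been seen. Against these flanks 6 start windows gained: Kcnq1ot1 (24.9 points, adjusted p = 5.54e-05), the second start of Mest (15.3, 0.00244), the shared start of Peg3 and Usp29 (11.7, 0.0135), the second start of Grb10 (11.2, 0.0105) and the next pair of Igf2 starts after its first (16.1 and 10.9). Over all starts 6.11% gained and 4.47% lost. Lower against their flanks were 2 start windows, the first of Mest (-31.7 points, adjusted p = 8.42e-06) and the first of Igf2 (-22.3, 0.000135). The Cdh15 start (-9.94 points) passed as a loss when scaled (-10.5) and without KO replicate 1, KO replicate 2, WT replicate 2 or WT replicate 3 (-11.0 to -10.3). The flanks themselves differed by -18.4 points at Kcnq1ot1, -17.0 at Mest, -11.1 at Peg3 and 0.254 at Grb10. Gains that were not called passed at the first Zdbf2 start when scaled (10.7), at Nnat without KO replicate 1 (11.9), at Dlk1 without WT replicate 2 (11.5) and at Airn without WT replicate 1 (16.7). The gain at Peg3 was lost when scaled (9.71 points), without KO replicate 3 (adjusted p = 0.0590) or WT replicate 3 (0.0746), and that at Grb10 without WT replicate 3 (0.0566). The smaller of the Igf2 gains was lost without KO replicate 1 or 3 or WT replicate 2 or 3. On a logit scale no Igf2 gain on body or flanks was called (adjusted p = 0.447 to 0.977).

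Other imprinted genes were counted in the same way. Of 35 of them, 23 regions were lower and none was higher, at a median of -6.73 points, and 13 of their 37 starts were lower, against 52.6% of all regions and 23.1% of all starts. Gpr1, which lies beside Zdbf2, averaged 16.6% ± 1.43 in KO and 41.4% ± 4.18 in WT at one start. Ddc, an enzyme of dopamine synthesis beside Grb10, had a region level of 45.9% ± 0.167 in KO and 66.2% ± 0.419 in WT. Of 16 genes that set or keep imprints, 9 regions and 3 of 22 starts were lower, against the same shares. The lower starts include a start of Dnmt3b, the other de novo methyltransferase, at 4.32% ± 1.67 in KO and 27.8% ± 0.557 in WT, and a start of Dnmt3a itself at 3.98% ± 0.944 in KO and 24.6% ± 7.35 in WT. No start of Zfp57 or Trim28 was called. Expression of these genes was not measured.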

How the data were processed

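Methylation was measured in 6 samples, 3 KO and 3 WT. The deposited table gives the methylated fraction of each 1 kb tile per sample, and the submitters' processing notes name BWA 0.7.8 and the mm10 build. How tiles were filtered is not given in the sources used here. Per the labels' protocols, 30 ng of DNA per sample went into 3 tagmentation libraries. The fractions were multiplied into percent. Gene spans, starts and sequences were RefSeq's on GRCm38.p6. Tiles, gene regions, starts, bodies (at least 2000 bp inside the ends, with 3 or more tiles) and their contrasts were each fitted with limma 3.58.1 (R 4.3.3, variance trend), with Benjamini-Hochberg adjustment over all features of a kind. The fit was tested on simulated data. The genes, windows and lists were chosen with earlier results of these data known. The text describes every imprinted gene of the list or counts it in its group. For a gene it may name its start, its body, its longest run of tiles near 50% and its called tile of smallest p, and it names other tiles in or beside the windows, chosen after their values were seen. Alternatives were a logit scale, centring, scaling, a replicate block, no variance trend, no size limit, other flanks, bands and windows, and leaving out each sample.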

Additional observations from a re-analysis of the deposited data

How the results depend on the processing

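With each sample centred on its median tile, 412 tiles near imprinted genes were lower and 27 higher, of tiles near 50% in WT 90 were lower and 7 higher, 12 regions were lower and 1 was higher (Peg12, 5.14 points), 5 starts were lower and 3 higher, and 10 bodies were lower. With samples scaled to one mean, 406 tiles were lower and 39 higher, 7 tiles near 50% were higher, 14 regions were lower, 5 starts were lower and 2 higher, and 11 bodies were lower. Among called results scaling also turned the sign of the Grb10 region (0.144 points) and of the bodies of Copg2 (0.859), Meg3 (0.193) and Slc22a3 (0.372), and among those not called that of 10 regions, 9 bodies and 9 starts, against 11, 9 and 16 by centring. Without a minimum difference 5 tiles were higher and 17 starts lower. With start windows of 500 or 2000 bp 0 starts were higher. A WT band of 35 to 65% gave 245 tiles lower and 2 higher, and the band on WT replicate 1 gave 0 higher. Without the variance trend 2 tiles near 50% were higher, and 3 starts lost more than the body, against 2 on the logit scale. Leaving out single samples gave 683 to 783 tiles lower and 3 to 6 higher, 123 to 136 tiles near 50% lower and 0 to 2 higher, 27 to 30 regions lower, 9 to 10 starts lower and 0 to 1 higher, 21 to 23 bodies lower, 2 to 4 starts that lost and 5 to 7 that gained on the body, and 3 to 7 that gained on the flanks. Across tiles, samples with the same replicate number did not deviate together from their group means (correlations of 0.00563, -0.00321 and 0.0110). The labels do not say whether the numbers pair samples, and these correlations cannot exclude it. With the replicate number as a block, 874 tiles were lower and 3 higher, 152 tiles near 50% were lower, and 29 regions, 9 starts and 23 bodies were lower. Among single starts, regions and bodies the block changed the call of the first Slc38a4 start alone. Depth is unknown, so a difference under the size limits cannot be told from counting error in single tiles. The size limits do not remove counting error, and its part in called tiles is unknown too.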
